A study of Tribolium castaneum with 6 samples.

Results

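Assembled isoforms of annotated genes are transcripts that the read assembly added to a gene already in the annotation. They were found by name: a transcript counted as assembled when its name carried the assembler's prefix, and as a new isoform when its locus also held at least 1 annotated transcript. By this rule 4953 of the 31944 transcripts in the tables were assembled isoforms. They lay in 2957 of the 15587 loci, beside 7940 annotated transcripts, and these loci carried 3330 annotated gene names. The libraries came from larvae of the red flour beetle Tribolium castaneum, strain GA-1 (Georgia-1). In the dsTcAMPKα group, larvae 20 days old received about 200 ng of double-stranded RNA against TcAMPKα, the catalytic subunit of AMP-activated protein kinase. In the dsEGFP group, larvae of the same strain and age were injected with double-stranded RNA of EGFP, which encodes a jellyfish-derived fluorescent protein and has no target in the insect. Each group had 3 libraries, each from a pool of 10 unsexed larvae collected 6 days after injection.

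A gene can give several mature RNAs through the choice of transcription start, of splice sites and exons, and of the poly(A) site, and isoforms of a gene can differ in their protein or in their untranslated ends. An assembler such as StringTie joins aligned reads into paths through the exons, keeps annotated transcripts, and adds a new isoform where the reads need another path. Reads in exons that isoforms share are divided among them by a model, so the level of a single isoform is an estimate. AMP-activated protein kinase is an energy sensor that restrains lipid and glycogen synthesis when cellular ATP is low.

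Most assembled isoforms lay inside the span of known genes. For 3881 of the 4953 (78.4%), both ends lay within the span of the annotated transcripts of the locus, and 1144 (23.1%) had the same start and end as an annotated transcript. The 5′ end reached at least 100 nt beyond every annotated transcript in 469 isoforms, and the 3′ end did so in 475. Fewer exons than in every annotated transcript of the locus were found in 2425 isoforms (49.0%), and more exons in 766 (15.5%). The median assembled isoform had 6 exons and was 2343 nt long. In mature length, 2416 were longer than every annotated transcript of their locus and 1539 were shorter. Only 171 had 1 exon.

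Some assembled isoforms spanned neighbouring genes. There were 535 (10.8%) whose span overlapped annotated transcripts of 2 or more genes, and 326 of the 2957 loci held more than 1 gene name. In those loci a share compares transcripts of different genes, so their names are given together where a share is given. Per locus, 2030 had a single assembled isoform and 130 had 5 or more. The largest number was 23, in LOC103314437/LOC659629, followed by 22 in LOC662585, which also had 40 annotated transcripts, and 19 in LOC660391. In these 3 loci the assembled isoforms carried on average 92.7%, 97.1% and 97.7% of the FPKM in dsTcAMPKα larvae, against 95.7%, 92.0% and 96.0% in dsEGFP larvae.

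Coverage corresponded to an estimated 3.35e+07 to 3.76e+07 reads per library. The target gene, listed as Snf1a, stood at 10.7, 7.32 and 16.3 FPKM in the dsTcAMPKα libraries, against 77.3, 74.9 and 56.9 FPKM in the dsEGFP libraries. The third dsEGFP library stood apart: in it 4354 assembled isoforms were above 0 FPKM, against 4767 to 4869 in the other libraries. Across the 2478 loci used for shares, Pearson's r between libraries was 0.847 to 0.852 within dsTcAMPKα and 0.679 to 0.837 within dsEGFP, given as a description. The stage marker Kr-h1, a juvenile hormone response gene, stood at 71.5, 56.3 and 67.8 FPKM in dsTcAMPKα larvae, against 32.5, 29.1 and 41.6 FPKM in dsEGFP larvae. Br-c, which acts at pupal commitment, stood at 27.8, 35.6 and 32.8 FPKM in dsTcAMPKα larvae against 74.7, 32.8 and 12.7 FPKM in dsEGFP larvae, and Lac2, a cuticle tanning enzyme, at 38.9, 44.2 and 51.0 FPKM against 51.7, 49.0 and 25.7 FPKM, both with overlap. The part of stage in the results was not tested.

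Assembled isoforms made up more of all FPKM after TcAMPKα knockdown, and the annotated transcripts of the same loci also tended higher. They carried 7.56%, 7.48% and 7.38% of all FPKM in the dsTcAMPKα libraries, against 5.93%, 5.32% and 5.77% in the dsEGFP libraries. The groups did not overlap, and the means were 7.47% ± 0.0908 and 5.67% ± 0.318 (SD, n = 3 each). The difference was 1.80 percentage points, with p = 0.1 by a two-sided exact permutation test, which is the smallest p that 3 libraries against 3 allow. Without the third dsEGFP library the difference was 1.85 points. Mitochondrial transcripts took 12.4% to 14.1% of all FPKM in dsTcAMPKα larvae and 13.9% to 17.8% in dsEGFP larvae. With them left out of the total, an alternative chosen after seeing the data, the difference was 1.85 points. The rise was not particular to assembled isoforms. Their median log2 fold change was 0.36, against 0.32 for the annotated transcripts of the same loci. With the trend of fold change with transcript length removed, both medians were 0.04.

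**Figure D1:**
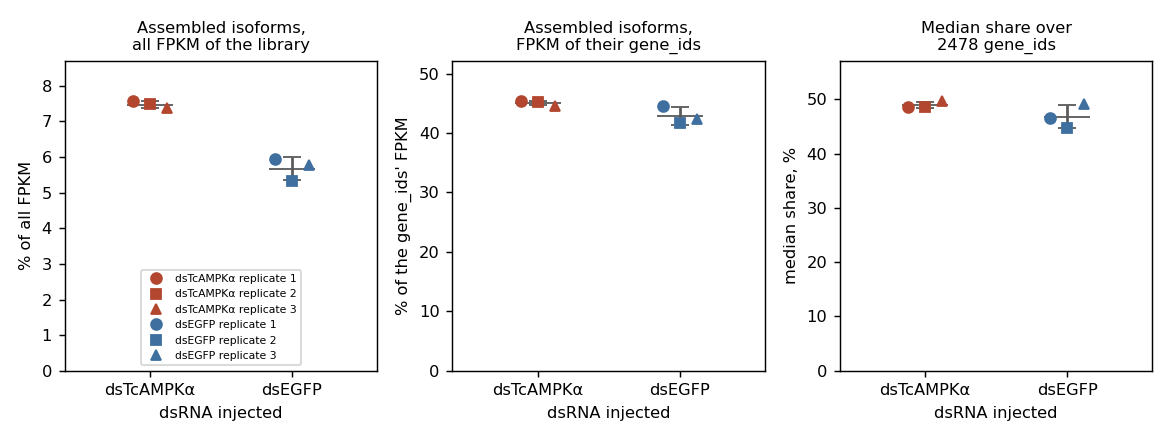
Level of assembled isoforms per library: percent of all FPKM (left), percent of the FPKM of their own loci (middle; a locus is a gene_id on the axis), and median share over 2478 loci (right). Points are libraries, horizontal bars with whiskers are the mean ± SD of 3 libraries, and all axes start at 0. The 3 dsTcAMPKα libraries sit at 7.38% to 7.56% of all FPKM, above the 5.32% to 5.93% of the dsEGFP libraries, and in the right panel the groups overlap.

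Within their own loci the assembled isoforms also stood higher, by a smaller margin relative to the spread. Of the FPKM of their own loci, assembled isoforms carried 45.3%, 45.2% and 44.6% in dsTcAMPKα larvae, against 44.6%, 41.7% and 42.3% in dsEGFP larvae. The groups almost touched, at 44.63% in the third dsTcAMPKα library and 44.61% in the first dsEGFP library. The difference of the group means was 2.19 points (two-sided exact permutation p = 0.1). The median share over 2478 loci was 48.6%, 48.6% and 49.6% in dsTcAMPKα larvae, against 46.6%, 44.8% and 49.1% in dsEGFP larvae, where the groups overlapped (difference 2.12 points, two-sided exact permutation p = 0.3, 1.09 points without the second dsEGFP library and 3.24 points without the third). The mean share over these loci differed by 0.57 points, with overlap (two-sided exact permutation p = 0.7). Assembled isoforms at 1 FPKM or more numbered 3914 to 4015 per dsTcAMPKα library and 3367 to 3776 per dsEGFP library.

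Assembled isoforms carried a sizeable part of the FPKM in most loci that had them. An isoform is assembled only where reads call for it, so part of this follows from how the isoforms were found. The share, meaning the percent of the FPKM of a locus in its assembled isoforms, was formed for the 2478 loci with a mean of at least 5 FPKM and a value above 0 in every library. Its median over all libraries was 47.0%, with quartiles at 27.1% and 72.8%. The leading transcript was an assembled isoform in all 6 libraries in 739 loci (29.8%) and an annotated one in all 6 in 724 (29.2%). Just inside the minimum of 5 FPKM, LOC103314131 and LOC658711 had mean FPKM of 5.00 and 5.01, with mean shares of 80.0% and 28.4% in dsTcAMPKα larvae and 72.1% and 34.2% in dsEGFP larvae. Just outside it, LOC103313264/LOC103313265 had 4.98 FPKM and shares of 51.9% in dsTcAMPKα larvae and 62.4% in dsEGFP larvae.

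**Figure D2:**
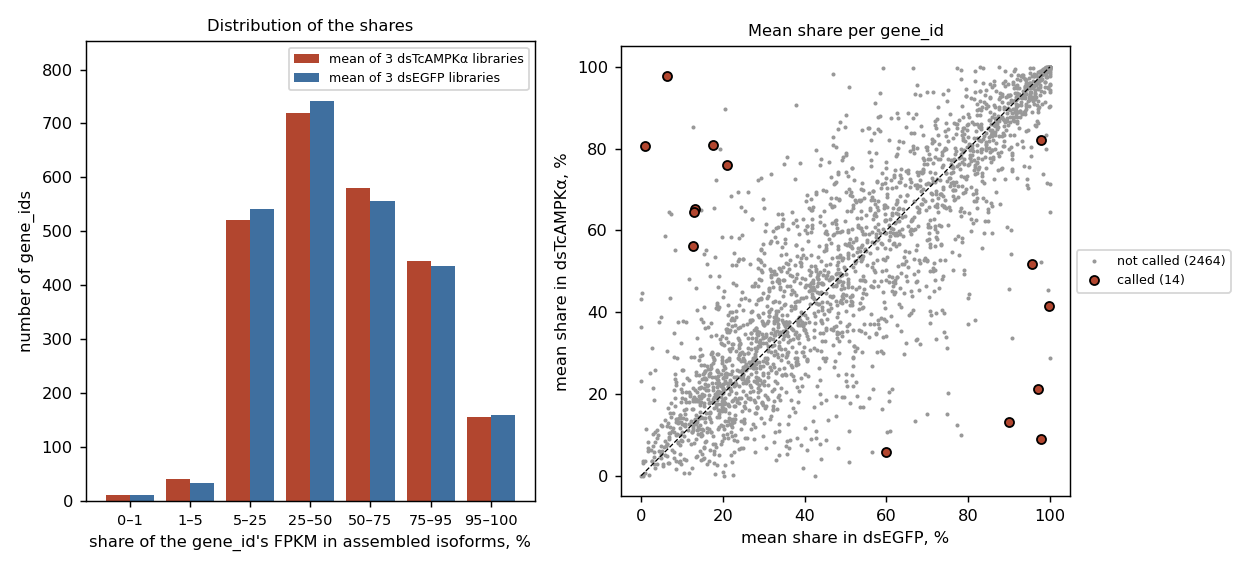
Left, number of loci (gene_ids) by the mean share of their FPKM in assembled isoforms, in percent, for the 3 dsTcAMPKα and the 3 dsEGFP libraries. Right, mean share in dsTcAMPKα against mean share in dsEGFP for each of 2478 loci, with the dashed line of equal shares. The 14 called loci are in a separate color, and the one closest to the line is LOC657371 at -15.5 points.

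The highest assembled FPKM lay in a locus of 5 genes, LOC107399231/LOC663954/LOC664009/LOC664022/LOC664041, with the term carbohydrate metabolic process. Its 8 assembled isoforms together had 1636, 1340 and 766 FPKM in dsTcAMPKα larvae, against 1333, 976 and 324 FPKM in dsEGFP larvae, with overlap. LOC658567, annotated in the study's functional table as cuticle protein 63, had assembled FPKM of 52.8, 166 and 124 in dsTcAMPKα larvae, against 721, 3253 and 125 in dsEGFP larvae. The spread within dsEGFP was wide, and the third dsEGFP library fell within the dsTcAMPKα range. The share of LOC658567 was 97.6%, 52.1% and 68.0% in dsTcAMPKα larvae, against 81.4%, 95.5% and 90.2% in dsEGFP larvae, and did not pass the limma test (adjusted p = 0.60). LOC107397480, just upstream on the same strand, had 25.8, 96.6 and 43.4 assembled FPKM in dsTcAMPKα larvae, against 874, 2042 and 35.4 in dsEGFP larvae.

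In LOC107398075/LOC107398077, whose gene ontology term is lipid transport, the share was 82.9%, 84.9% and 83.5% in dsTcAMPKα larvae, against 74.8%, 68.0% and 57.4% in dsEGFP larvae. The groups did not overlap, yet the difference of 17.0 ± 5.2 points (SE) did not pass the limma test (adjusted p = 0.305). The antimicrobial peptide gene LOC656629, annotated as tenecin-1, had 234, 151 and 237 assembled FPKM in dsTcAMPKα larvae, against 737, 664 and 277 in dsEGFP larvae, while its mean share was 71.7% ± 13.8 in dsTcAMPKα larvae and 75.8% ± 2.36 in dsEGFP larvae (SD, n = 3 each). LOC659112, annotated as 60S ribosomal protein L34, had shares from 14.5% to 57.9% in dsTcAMPKα larvae and from 11.6% to 62.4% in dsEGFP larvae, so its libraries varied widely within both groups.

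Loci chosen for a mean share of at least 95% leave little room for the share to vary. LOC103313498 had 99.3% to 99.4% of its FPKM in 1 assembled isoform in dsTcAMPKα larvae and 99.1% to 99.6% in dsEGFP larvae, at a mean of 475 FPKM. LOC661525, whose term is regulation of translation, had 97.3% to 97.7% in dsTcAMPKα larvae and 97.0% to 97.6% in dsEGFP larvae. LOC660229, with 9 assembled isoforms beside 1 annotated transcript, stood at 99.4% ± 0.0694 and 99.3% ± 0.245 (SD, n = 3 each). In 9 loci every annotated transcript was at 0 in all libraries, so the share was 100% throughout, and 4 of them were left out of the share test while the other 5 entered it with a difference of 0. The most abundant was LOC103313049, and Cpap1-a is named after its values were seen. Cpap1-a belongs to a family of chitin-binding cuticle proteins, and its assembled isoforms averaged 9.25 FPKM in dsTcAMPKα larvae and 35.6 FPKM in dsEGFP larvae.

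Loci chosen for a mean share under 1% were bounded in the same way. The locus LOC100141575/LOC100141778/LOC657600, with genes annotated as the serine protease brachyurin, had a mean of 589 FPKM and shares of 0.188% to 0.230% in dsTcAMPKα larvae and 0.262% to 0.412% in dsEGFP larvae. LOC659556, whose term is removal of superoxide radicals, had mean shares of 0.0293% in dsTcAMPKα larvae and 0.0216% in dsEGFP larvae. Ndufs5, a subunit of mitochondrial complex I, had 0.556% ± 0.228 in dsTcAMPKα larvae and 0.819% ± 0.348 in dsEGFP larvae (SD, n = 3 each).

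The comparison of shares asked whether knockdown of TcAMPKα changed which isoforms a gene used, apart from how much RNA it made. It used limma on the percent share, and calls needed a difference above 10 percentage points and, after Benjamini-Hochberg adjustment, a p below 0.05. Of 2474 loci tested, 14 were called (0.566%), 7 with a higher share of assembled isoforms in dsTcAMPKα larvae and 7 with a lower one (0.283% in each direction). At an unadjusted p under 0.05 there were 296 (177 higher and 119 lower). Over the 2478 loci the median difference was 0.28 points and the median absolute difference 6.80 points, against a median SD of 4.91 points within dsTcAMPKα and 8.19 points within dsEGFP.

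The number of calls depended on single libraries. Without the first dsEGFP library it was 0 (314 loci at an unadjusted p under 0.05, smallest adjusted p = 0.0595 by limma), and without the second dsEGFP library it was 4. It was 8 without the second dsTcAMPKα library and 37 without the third dsEGFP library, 12 of them among the 14. Loci with several gene names were called at 1.98% (6 of 303), against 0.368% (8 of 2171) for loci with 1 gene name.

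**Figure D3:**
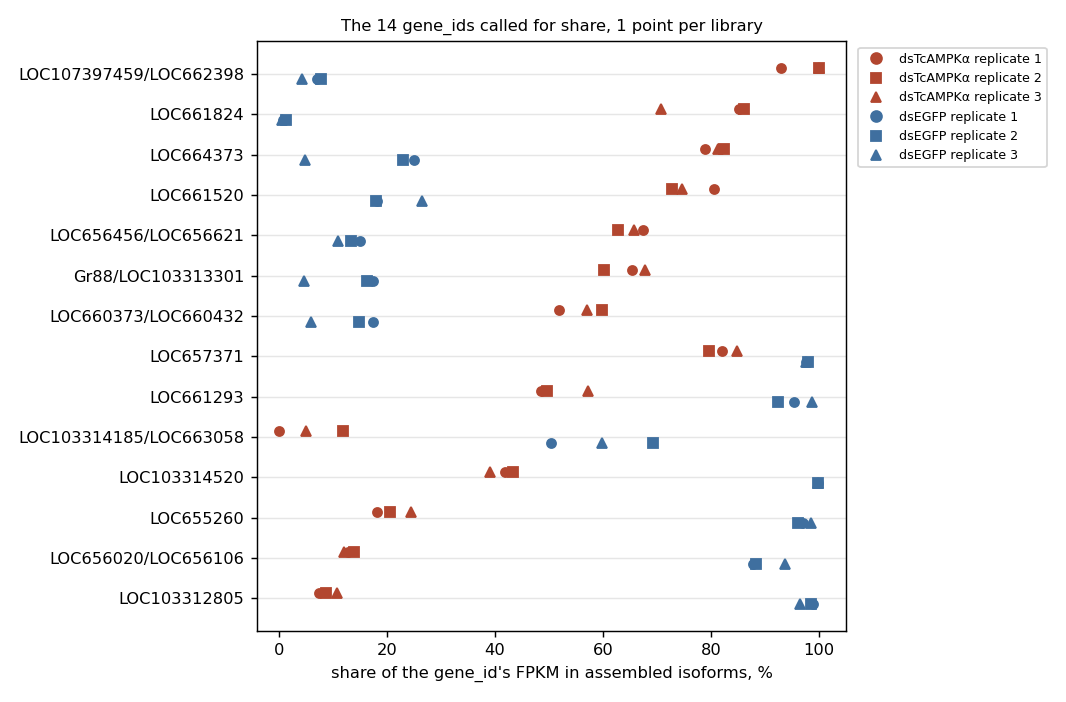
Share of FPKM in assembled isoforms, in percent, for each of the 14 loci called (rows) in each library; dsTcAMPKα points lie above dsEGFP points in a row, and the shape gives the replicate. In no row do the groups overlap; the 7 rows at the top are higher in dsTcAMPKα and the 7 at the bottom lower.

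The locus that moved furthest among those with 1 gene name was LOC103312805 (Tcas5.2, NC_007419.2:7663933-7665939, plus strand). Its assembled isoform carried 7.53%, 8.78% and 10.9% of its FPKM in dsTcAMPKα larvae, against 98.8%, 98.4% and 96.4% in dsEGFP larvae. The locus thus gave almost only the assembled isoform in the controls and almost only the annotated one after knockdown. The share fell by 88.8 ± 5.49 points (SE, limma adjusted p = 0.00603), and adjusted p ranged from 0.000351 to 0.0595 over 20 alternatives, with only the fit without the first dsEGFP library past 0.05.

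Both isoforms of LOC103312805 ended at the same 3′ position. The assembled isoform had 4 exons and 1859 nt and started 565 nt upstream of the annotated transcript, which had 3 exons and 1348 nt. The assembled isoform stood at 8.44, 11.5 and 11.0 FPKM in dsTcAMPKα larvae, against 145, 129 and 102 FPKM in dsEGFP larvae. The annotated transcript went the other way, with 104, 120 and 90.2 FPKM in dsTcAMPKα larvae against 1.70, 2.05 and 3.81 FPKM in dsEGFP larvae. Both passed the transcript test, and the summed FPKM of the locus did not (log2 fold change -0.15 ± 0.18, SE, limma adjusted p = 0.579).

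**Figure D4:**
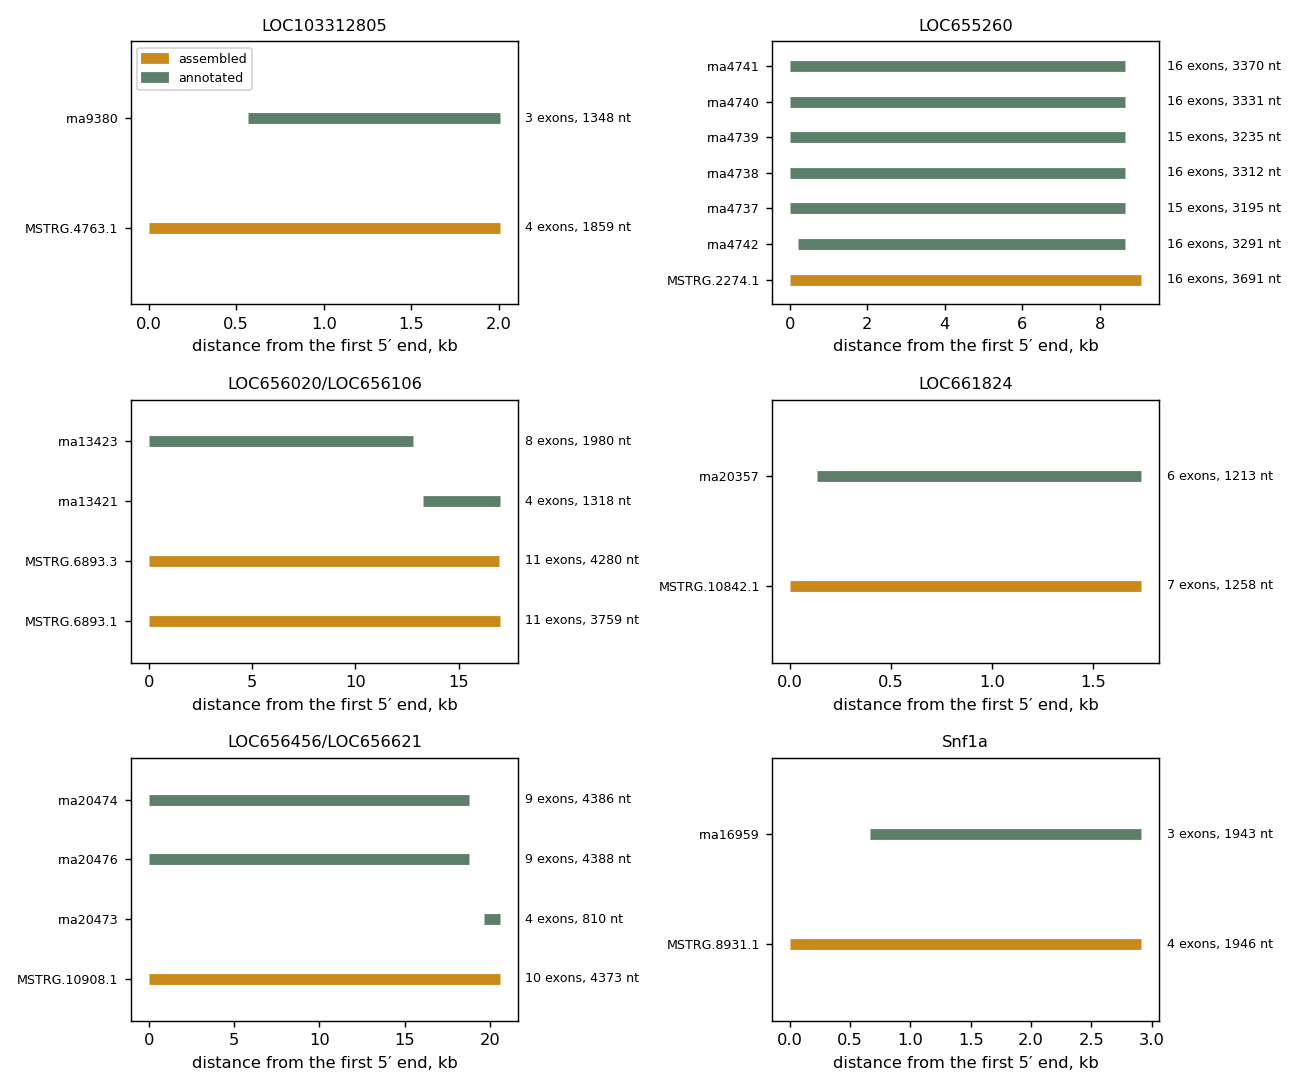
Spans of the transcripts of 6 loci that reached 1 FPKM in at least 1 library, as distance from the first 5′ end in kb; introns are not drawn, and exon number and mature length stand beside each transcript. Assembled isoforms reach further upstream in LOC103312805, LOC661824 and Snf1a, further downstream in LOC655260, and across both genes in LOC656020/LOC656106 and LOC656456/LOC656621.

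LOC655260, annotated as EH domain-binding protein 1, showed the same direction with a change of the whole gene. EH domain-binding proteins link endocytic vesicles to the actin cytoskeleton in mammals. Its share was 18.3%, 20.6% and 24.5% in dsTcAMPKα larvae, against 97.0%, 96.1% and 98.5% in dsEGFP larvae, and fell by 76.1 ± 5.52 points (SE, limma adjusted p = 0.00603). The assembled isoform, which ran 418 nt past the annotated 3′ end, stood at 9.41, 10.6 and 10.9 FPKM in dsTcAMPKα larvae and at 21.2, 14.5 and 17.4 FPKM in dsEGFP larvae. All 6 annotated transcripts were higher in dsTcAMPKα larvae and passed the transcript test. With the length trend removed, rna4742 and rna4737 did not pass (limma adjusted p = 0.101 and 0.125). The highest of them, rna4738, had 17.4, 17.3 and 6.48 FPKM in dsTcAMPKα larvae and was listed at 0 in every dsEGFP library. The summed FPKM of LOC655260 rose with a log2 fold change of 1.40 ± 0.17 (SE, limma adjusted p = 0.0183).

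LOC656020/LOC656106 is a locus in which the spans of 2 assembled isoforms covered neighbouring genes, LOC656020 with the term protein dephosphorylation and LOC656106. The share was 12.9%, 14% and 12.1% in dsTcAMPKα larvae, against 87.9%, 88.3% and 93.8% in dsEGFP larvae, and fell by 77.0 ± 5.59 points (SE, limma adjusted p = 0.00603). The annotated transcript rna13423 of LOC656106 stood at 59.6, 57.6 and 61.9 FPKM in dsTcAMPKα larvae, against 0.51, 0.54 and 1.22 FPKM in dsEGFP larvae. The 2 assembled isoforms together carried 13.1, 13.0 and 12.5 FPKM in dsTcAMPKα larvae and 27.8, 25.3 and 19.1 FPKM in dsEGFP larvae. Taken singly they varied within dsEGFP, at 20.7, 19.3 and 0.146 FPKM for MSTRG.6893.1 and 7.12, 6.06 and 18.9 FPKM for MSTRG.6893.3. Neither passed the transcript test by itself (limma adjusted p = 0.635 and 0.981). The summed FPKM of the locus rose with a log2 fold change of 1.86 ± 0.19 (SE, limma adjusted p = 0.0169).

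LOC103314520 and LOC661293 also had a lower share after knockdown. In LOC103314520 the share was 42.0%, 43.3% and 39.0% in dsTcAMPKα larvae, against 99.7%, 99.8% and 99.8% in dsEGFP larvae (-58.3 ± 3.95 points, SE). Its isoforms had 2 exons each and differed at the 3′ end by 30 nt, and its annotated transcript rose to 4.4, 5.16 and 4.65 FPKM in dsTcAMPKα larvae, against 0.02, 0.01 and 0.03 FPKM in dsEGFP larvae. In LOC661293 the share was 48.5%, 49.6% and 57.2% in dsTcAMPKα larvae, against 95.4%, 92.4% and 98.8% in dsEGFP larvae. Of its 8 annotated transcripts rna180 was the highest after knockdown, with 26.2, 24.9 and 22.3 FPKM in dsTcAMPKα larvae against 0, 0 and 0.04 FPKM in dsEGFP larvae. The summed FPKM of LOC661293 rose with a log2 fold change of 1.09 ± 0.21 (SE, limma adjusted p = 0.0271).

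LOC657371, with 5 assembled and 9 annotated transcripts, kept most of its FPKM in assembled isoforms in both groups, at 82.1%, 79.7% and 84.8% in dsTcAMPKα larvae against 97.7%, 97.9% and 97.6% in dsEGFP larvae (-15.5 ± 1.67 points, SE). LOC103314185/LOC663058 had 0%, 11.9% and 5.10% in dsTcAMPKα larvae, against 50.4%, 69.4% and 59.9% in dsEGFP larvae. Its summed FPKM was low in dsTcAMPKα larvae, at 0.21, 0.73 and 8.64 FPKM, against 4.42, 5.21 and 22.5 FPKM in dsEGFP larvae, so the first of those shares came from 0.21 FPKM. The means were 3.19 FPKM in dsTcAMPKα larvae and 10.7 FPKM in dsEGFP larvae. The locus thus passed the minimum of 5 FPKM only through dsEGFP, and was not tested with that minimum in both groups. The call was lost in 8 of 16 alternatives for LOC103314185/LOC663058 and in 7 of 20 for LOC657371.

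Among loci with a higher share, LOC661824 (Tcas5.2, NC_007424.3:4023673-4025413, minus strand) was close to an exchange of isoforms. The share was 85.3%, 86.1% and 70.7% in dsTcAMPKα larvae, against 0.867%, 1.41% and 0.548% in dsEGFP larvae, and rose by 79.7 ± 6.13 points (SE, limma adjusted p = 0.00691). The assembled isoform started 136 nt upstream of the annotated one and had 7 exons in place of 6. It stood at 10.3, 8.81 and 8.45 FPKM in dsTcAMPKα larvae, against 0.09, 0.11 and 0.07 FPKM in dsEGFP larvae. The annotated transcript stood at 1.79, 1.42 and 3.50 FPKM in dsTcAMPKα larvae, against 10.5, 7.88 and 12.3 FPKM in dsEGFP larvae. The summed FPKM of LOC661824 did not pass the test (log2 fold change 0.15 ± 0.19, SE, limma adjusted p = 0.596).

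LOC656456/LOC656621 and LOC660373/LOC660432 each had an assembled isoform whose span overlapped both genes. In LOC656456/LOC656621 the share was 67.4%, 62.9% and 65.8% in dsTcAMPKα larvae, against 15.0%, 13.4% and 10.9% in dsEGFP larvae. The annotated rna20474 of LOC656621 fell to 0.20, 0.15 and 0.17 FPKM in dsTcAMPKα larvae against 19.4, 19.8 and 9.77 FPKM in dsEGFP larvae. Another annotated transcript of LOC656621, rna20476, went the other way and did not pass the transcript test (limma adjusted p = 0.169). It stood at 6.66, 9.73 and 10.4 FPKM in dsTcAMPKα larvae, against 2.84, 5.57 and 0.000509 FPKM in dsEGFP larvae. In LOC660373/LOC660432 the share was 51.9%, 59.8% and 57.0% in dsTcAMPKα larvae, against 17.5%, 14.8% and 6.04% in dsEGFP larvae. There the annotated transcript of LOC660373 fell to 10.6, 7.52 and 6.56 FPKM in dsTcAMPKα larvae, against 41.0, 46.0 and 59.9 FPKM in dsEGFP larvae. The share of LOC660373/LOC660432 lost its call in 9 of 19 alternatives, among them estimated reads (limma adjusted p = 0.0848) and the length trend removed (0.0535), over a range of 0.0185 to 0.127.

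LOC661520, whose term is phosphatidylinositol dephosphorylation, had a share of 80.6%, 72.8% and 74.6% in dsTcAMPKα larvae, against 18.3%, 17.9% and 26.6% in dsEGFP larvae. Its isoform MSTRG.11015.2, with 12 exons where the annotated transcript had 13, rose to 13.6, 11.1 and 10.8 FPKM in dsTcAMPKα larvae, against 0.60, 0.60 and 2.68 FPKM in dsEGFP larvae. MSTRG.11015.2 passed the transcript test (limma adjusted p = 0.0379), but not with the length trend removed (0.101). LOC664373 had shares of 78.8%, 82.4% and 81.4% in dsTcAMPKα larvae, against 25%, 23.1% and 4.87% in dsEGFP larvae. Its summed FPKM varied widely, with 158, 85.3 and 42.9 FPKM in dsTcAMPKα larvae and 13.2, 11.8 and 101 FPKM in dsEGFP larvae. The third dsEGFP library thus had the lowest share and a level inside the dsTcAMPKα range. The share of LOC664373 lost its call in 7 of 20 alternatives and that of LOC661520 in 5 of 19.

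In the other 2 loci with a higher share the assembled isoform also overlapped both genes. Gr88/LOC103313301, in which Gr88 is a gustatory receptor gene, had 65.5%, 60.2% and 67.9% in dsTcAMPKα larvae, against 17.6%, 16.3% and 4.73% in dsEGFP larvae, and the transcript that fell was rna13112 of LOC103313301 (1.59, 3.01 and 2.11 FPKM in dsTcAMPKα larvae, against 11.4, 9.15 and 11.8 FPKM in dsEGFP larvae). LOC107397459/LOC662398 had 93%, 100% and 100% in dsTcAMPKα larvae, against 7.02%, 7.86% and 4.24% in dsEGFP larvae. LOC107397459/LOC662398 was near the level minimum, with means of 4.56 FPKM in dsTcAMPKα larvae and 6.12 FPKM in dsEGFP larvae. It thus passed the minimum only through dsEGFP, and was not tested with that minimum in both groups. In the second dsTcAMPKα library the whole locus stood at 0.44 FPKM. The share of Gr88/LOC103313301 lost its call in 8 of 18 alternatives, among them estimated reads (limma adjusted p = 0.0808, range 0.0146 to 0.108).

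**Figure D5:**
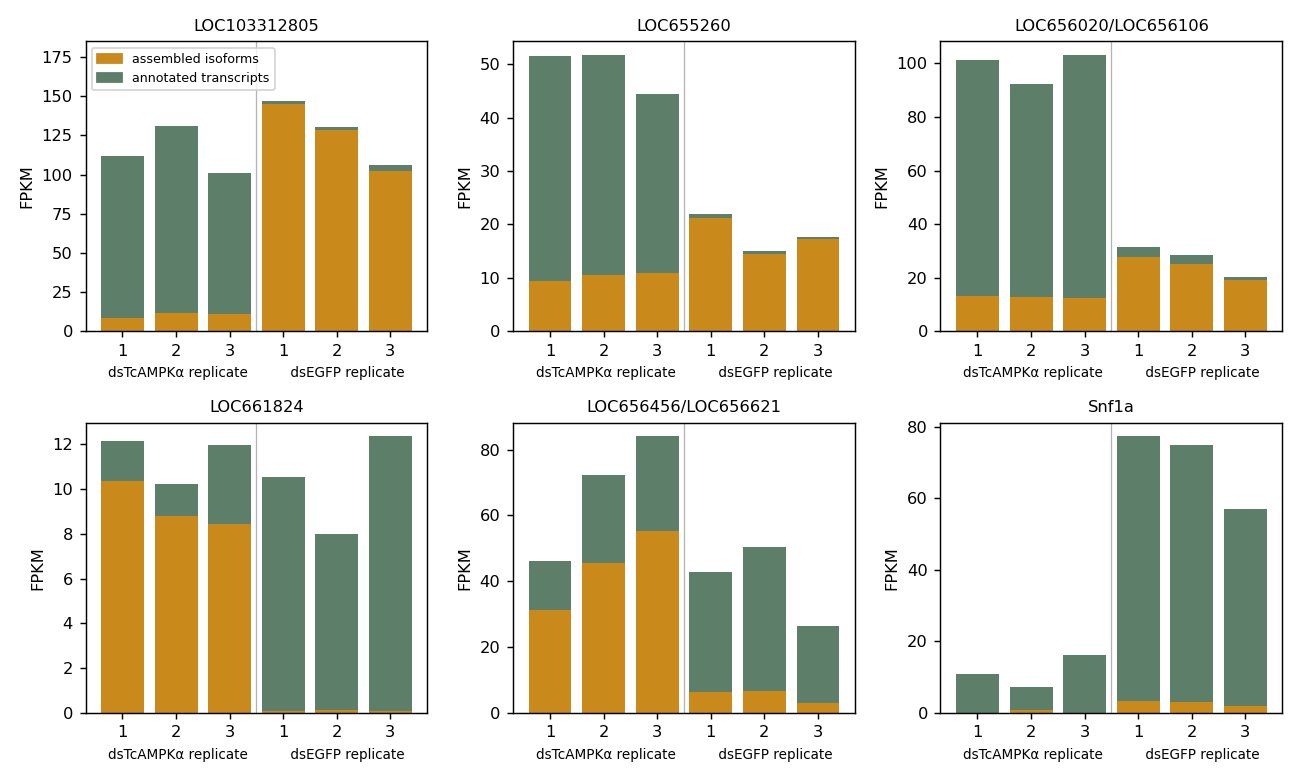
Summed FPKM of assembled isoforms and of annotated transcripts in each library for 6 loci, stacked from 0. In LOC103312805 and LOC661824 the totals of the groups overlap and their makeup differs; in LOC655260 and LOC656020/LOC656106 the annotated part is larger in dsTcAMPKα; in Snf1a both parts are lower in dsTcAMPKα.

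Calls for share were also compared with calls for level. Of the 2474 loci tested for share, 169 had a higher and 39 a lower summed FPKM in dsTcAMPKα larvae by limma, with more than a log2 change of 1 (over all loci, 6.95% were called, 4.21% higher and 2.74% lower). Of the 14 loci called for share, 3 were among them: LOC655260, LOC656020/LOC656106 and LOC661293. Calls for summed FPKM were not refitted with the trend of fold change with transcript length removed. Loci whose shares did not overlap between groups numbered 550 of 2478 (22.2%), with 366 of them differing by more than 10 points (14.8%, 209 higher and 157 lower). The leading transcript was assembled in every dsTcAMPKα library and annotated in every dsEGFP library in 35 loci, and the opposite held in 19.

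The transcript test took each isoform by itself, on log2(FPKM + 1), which understates the change of low transcripts. Its minimum of 1 FPKM was on the mean of all 6 libraries, so a transcript could meet it through a single group. Of 4144 assembled isoforms with a mean of at least 1 FPKM, 103 were called, which needed a limma p below 0.05 after adjustment and a log2 change larger than 1 either way: 83 higher and 20 lower in dsTcAMPKα larvae (2.49%). Over all 18283 transcripts tested, 468 were called (2.56%, 1.56% higher and 0.995% lower), so the share of calls was near the background. The annotated transcripts of the same loci had 84 higher and 26 lower of 3896. The median log2 fold change was 0.36 for assembled isoforms, 0.32 for the annotated transcripts of the same loci and 0.23 for all transcripts.

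The balance of directions differed with the scaling. With median-ratio size factors the median of all transcripts was 0.04 and that of assembled isoforms 0.18. The calls among assembled isoforms were then 48 higher and 35 lower (1.16% and 0.845%). Over all transcripts they were 163 higher and 320 lower (0.892% and 1.75%). With quantile normalization, 53 assembled isoforms were higher and 40 lower (1.28% and 0.965%). Over all transcripts 193 were then higher and 253 lower (1.06% and 1.38%). Log2 fold change moved with transcript length over all 18283 transcripts (Spearman's rho = 0.50, a description) and over assembled isoforms (rho = 0.40, n = 4144). With the length trend removed from each library 13 were higher and 17 lower (0.711% of all transcripts were then called), and the median was 0.04 for assembled isoforms and 0.02 for all transcripts. The difference of share moved little with the length ratio of assembled to annotated transcripts (rho = 0.0370, n = 2469 loci). Leaving out dsTcAMPKα library 1, 2 or 3 gave 1, 2 or 9 calls among assembled isoforms (0.0243%, 0.0486% or 0.219%). Over all transcripts 0.0275%, 0.0660% or 0.249% were then called. Leaving out dsEGFP library 1, 2 or 3 gave 31, 16 or 388 calls among assembled isoforms (0.749%, 0.383% or 9.40%). Over all transcripts 0.575%, 0.266% or 9.05% were then called, so the counts moved with those of all transcripts.

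The 5 largest rises among the called assembled isoforms follow. MSTRG.8659.3 of LOC664373 stood at 124, 70.3 and 34.9 FPKM in dsTcAMPKα larvae, against 3.31, 2.72 and 4.91 FPKM in dsEGFP larvae (log2 fold change 3.91 ± 0.46, SE, limma adjusted p = 0.0277, and 0.0505 with the length trend removed). MSTRG.385.1 of LOC661297, annotated as the basement membrane protein laminin subunit beta-1, stood at 24.9, 12.7 and 17.5 FPKM in dsTcAMPKα larvae, against 1.34, 0 and 0 FPKM in dsEGFP larvae (log2 fold change 3.82 ± 0.43). It had both ends in common with the annotated gene. MSTRG.12200.5 of LOC107398772 stood at 94.5, 63.8 and 55.6 FPKM in dsTcAMPKα larvae, against 6.28, 3.97 and 7.33 FPKM in dsEGFP larvae. Isoforms were chosen here only if their groups did not overlap, which held for all 103 called, so the lack of overlap is no further support. MSTRG.7872.7 of LOC658515, with the term peptidyl-tyrosine dephosphorylation, stood at 10.4, 10.2 and 8.91 FPKM in dsTcAMPKα larvae, against 0, 0 and 0.13 FPKM in dsEGFP larvae. The fifth, MSTRG.1759.3 of LOC658186, was listed at 0 in every dsEGFP library and is given with such isoforms. MSTRG.385.1, MSTRG.7872.7 and MSTRG.1759.3 had means under 1 FPKM in dsEGFP larvae. They thus met the minimum of 1 FPKM only through dsTcAMPKα.

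The 5 largest falls among them follow. MSTRG.4905.9 of LOC664266 stood at 0.15, 0.15 and 0.19 FPKM in dsTcAMPKα larvae, against 29.7, 11.8 and 69.2 FPKM in dsEGFP larvae (log2 fold change -4.70 ± 0.59, SE, limma adjusted p = 0.0281). MSTRG.8516.4 of LOC664584, matched in the study's table to a cuticle protein of Anopheles gambiae, stood at 0, 0 and 2.78 FPKM against 16.1, 17.6 and 35.7 FPKM (log2 fold change -3.87 ± 0.61, adjusted p = 0.0402, and 0.0657 with the length trend removed). MSTRG.9914.3 of LOC660719, with the term response to oxidative stress, stood at 0.93, 0 and 0.86 FPKM in dsTcAMPKα larvae, against 15.6, 7.98 and 13.4 FPKM in dsEGFP larvae. MSTRG.9168.4 of LOC655896, in the locus LOC103314817/LOC655245/LOC655896, stood at 0.48, 0.57 and 0.37 FPKM against 10.3, 13.0 and 11.9 FPKM. The fifth was the isoform of LOC103312805 described above, which passed the test in all 13 alternatives run on it (log2 fold change -3.76 to -3.35). MSTRG.4905.9, MSTRG.8516.4, MSTRG.9914.3 and MSTRG.9168.4 had means under 1 FPKM in dsTcAMPKα larvae. They thus met the minimum of 1 FPKM only through dsEGFP.

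Isoforms seen in a single group were few, and the following were picked out after their values were seen. At 1 FPKM or more in every dsTcAMPKα library and listed at 0 in every dsEGFP library were 2: MSTRG.1759.3 of LOC658186, at 6.47, 9.08 and 9.85 FPKM, and MSTRG.1165.3 of LOC663521 (locus LOC107399216/LOC663521), at 1.05, 1.25 and 1.46 FPKM. At 1 FPKM or more in every dsEGFP library and listed at 0 in every dsTcAMPKα library were 3: MSTRG.8947.7 and MSTRG.8947.9 of LOC662737, in a locus of 5 genes, at 10.8, 4.14 and 8.16 FPKM and at 3.24, 1.56 and 1.2 FPKM, and MSTRG.3968.2 of LOC103312543, at 1.18, 1.5 and 2.56 FPKM. No fold change is given against a group at 0.

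In 7 loci an assembled isoform and an annotated transcript were called in opposite directions, and in 10 loci in the same direction. Of the 7, LOC103312805, LOC661824, LOC656456/LOC656621 and LOC660373/LOC660432 were also called for share. The other 3 were picked out after their values were seen, and their shares did not pass. In LOC658387/Serpin5, a locus with a serine protease inhibitor gene, the annotated rna327 of LOC658387 stood at 0.44, 0.46 and 0.38 FPKM in dsTcAMPKα larvae, against 59.0, 43.4 and 38.9 FPKM in dsEGFP larvae. The assembled MSTRG.167.2 stood at 107, 81.7 and 59.4 FPKM in dsTcAMPKα larvae, against 9.86, 8.22 and 21.6 FPKM in dsEGFP larvae. In LOC662027 the assembled MSTRG.10822.1 stood at 2.12, 1.59 and 1.68 FPKM against 14.4, 6.99 and 22.6 FPKM, and its share at 7.38%, 4.83% and 5.4% in dsTcAMPKα larvae against 62.8%, 38.0% and 68.4% in dsEGFP larvae (limma adjusted p = 0.0810). In LOC100141642, 3 annotated transcripts were higher and the assembled MSTRG.6606.6 lower in dsTcAMPKα larvae, at 3.12, 2.13 and 2.83 FPKM against 13.8, 11.7 and 8.29 FPKM. With the length trend removed, MSTRG.9319.1 of LOC660432 and rna20357 of LOC661824 did not pass the transcript test (limma adjusted p = 0.152 and 0.0616).

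The knocked-down gene itself had an assembled isoform. In Snf1a, MSTRG.8931.1 started 668 nt upstream of the annotated transcript, with 4 exons in place of 3, and shared its 3′ end. It was listed at 0, 0.65 and 0 FPKM in dsTcAMPKα larvae, against 3.20, 3.09 and 1.93 FPKM in dsEGFP larvae. The annotated transcript stood at 10.7, 6.67 and 16.3 FPKM in dsTcAMPKα larvae, against 74.1, 71.8 and 55.0 FPKM in dsEGFP larvae. Both were thus lower in every dsTcAMPKα library than in any dsEGFP library, and the summed FPKM fell by 2.56 ± 0.29 on the log2 scale (SE, limma adjusted p = 0.0169). The assembled isoform by itself missed the threshold (log2 fold change -1.64 ± 0.32, SE, limma adjusted p = 0.0521). The share was 0%, 8.91% and 0% in dsTcAMPKα larvae and 4.14%, 4.13% and 3.39% in dsEGFP larvae, with a difference of -0.91 ± 2.92 points (SE, limma adjusted p = 0.923).

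In the insulin pathway, the insulin-like receptor gene LOC661524 (InR2) and the phosphatidylinositol 3-kinase gene LOC657286 (PI3K) each had an assembled isoform. In LOC661524 the share was 1.53%, 1.80% and 2.48% in dsTcAMPKα larvae, against 5.80%, 65.1% and 48.1% in dsEGFP larvae. The groups did not overlap, but the dsEGFP libraries differed so much that the difference of -37.7 ± 14.9 points (SE) did not pass the limma test (adjusted p = 0.402). The summed FPKM of LOC661524 was 22.0, 19.0 and 25.5 in dsTcAMPKα larvae, against 11.4, 8.86 and 7.15 in dsEGFP larvae, and rose (log2 fold change 1.2 ± 0.21, SE, limma adjusted p = 0.0243). In LOC657286 the share overlapped between groups, at 75.3%, 56.4% and 48.0% in dsTcAMPKα larvae against 72.1%, 70.3% and 100% in dsEGFP larvae. The summed FPKM of LOC657286 rose (log2 fold change 1.09 ± 0.18, SE, limma adjusted p = 0.0241). Summed FPKM was not refitted with the length trend removed. In the transcript test, rna1021 of LOC661524 had a log2 fold change of 1.98, and 1.22 with that trend removed (limma adjusted p = 0.0592 and 0.210). MSTRG.11189.1, rna21036 and rna21035 of LOC657286 had 0.66, 1.72 and 1.40, and -0.0087, 1.36 and 0.73 with it removed. None of these passed in either fit. The heat shock protein gene LOC662134 (heat shock protein 23) was under the level minimum, and its assembled isoform reached 1 FPKM only in the second dsEGFP library, at 1.44 FPKM.

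Gene groups by gene ontology term held few loci with assembled isoforms, and none of their loci was called for share. Of 51 genes of mRNA splicing and processing, 13 loci were tested, with a median share of 74.1% in dsTcAMPKα larvae and 68.7% in dsEGFP larvae, and 2 had an unadjusted p under 0.05, beside 296 of all 2474 loci (12%). The median of their differences was 5.41 points, beside 0.28 points over all 2474 loci. The most abundant, LOC662166, had 82.3%, 81.2% and 85.7% in dsTcAMPKα larvae, against 75.9%, 75% and 73.0% in dsEGFP larvae, without overlap (8.39 ± 2.79 points, SE, limma adjusted p = 0.346). Shares of LOC663727, LOC655801 and LOC658885 overlapped between the groups.

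The median difference was -4.08 points over the 5 muscle and sarcomere loci tested and -8.92 points over the 7 actin organization loci, with 1 locus in each group whose shares did not overlap (20.0% and 14.3%, beside 22.2% of all loci). The median share of the muscle loci was yet higher in dsTcAMPKα larvae, at 51.7% against 44.8%. That of the actin loci was 62.7% against 80.3%. In the muscle group LOC660122 had 59.2%, 56.9% and 59.2% in dsTcAMPKα larvae, against 83.6%, 85.2% and 47.4% in dsEGFP larvae. LOC661922 differed by -4.08 points. LOC655614/LOC655694 (6.43 points, without overlap) and LOC103312491/LOC656589 (15.8 points) went the other way. In the actin group, Dl, the Notch ligand Delta, had 64.3%, 58.3% and 65.6% in dsTcAMPKα larvae against 68.3%, 54.6% and 92.1% in dsEGFP larvae. In LOC660122 and Dl the third dsEGFP library differed most from the other dsEGFP libraries.

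In the metabolic groups 3 loci each of glycolysis and of fatty acid biosynthesis were tested, with median differences of 13.9 and -0.98 points. The glycolysis locus LOC656993 had 41.5%, 40.5% and 48.1% in dsTcAMPKα larvae, against 21.5%, 21.7% and 45.1% in dsEGFP larvae, where the third dsEGFP library overlapped with dsTcAMPKα. Among the loci of fatty acid biosynthesis, LOC659089 had 92.3% ± 1.52 in dsTcAMPKα larvae and 93.3% ± 3.80 in dsEGFP larvae (SD, n = 3 each), while its summed FPKM was 216, 165 and 185 against 121, 118 and 118. LOC661503 had 14.8%, 14.5% and 22.0% in dsTcAMPKα larvae, against 27.2%, 17.1% and 19.9% in dsEGFP larvae.

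In steroid hormone signaling 3 loci were tested, with a median difference of 12.6 points. LOC663422, annotated as the ecdysone-responsive nuclear receptor HR3, had 48.4%, 63.0% and 57.1% in dsTcAMPKα larvae, against 32.1%, 51.7% and 46.7% in dsEGFP larvae, with overlap, while its summed FPKM fell to 4.58, 7.65 and 5.72 in dsTcAMPKα larvae, against 27.7, 13.1 and 17.3 in dsEGFP larvae (log2 fold change -1.51 ± 0.30, SE, limma adjusted p = 0.0293). LOC658947 had 54.5%, 73.0% and 51.9% in dsTcAMPKα larvae, against 14.6%, 82.0% and 0.411% in dsEGFP larvae. Among 5 autophagy loci, Pub, a ubiquitin gene at a mean of 959 FPKM, had 18.9% ± 4.39 in dsTcAMPKα larvae and 23.0% ± 7.10 in dsEGFP larvae (SD, n = 3 each). In the axon guidance group both loci tested, LOC662595 and LOC655156, had higher shares in every dsTcAMPKα library than in any dsEGFP library. Over all 2478 loci, 550 (22.2%) did not overlap, and 312 of these were higher. LOC662595 and LOC655156 differed by 8.06 and 5.05 points, and neither passed the limma test (adjusted p = 0.477 and 0.693).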

How the data were processed

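RNA-Seq of 6 libraries of pooled larvae was analysed, 3 dsTcAMPKα and 3 dsEGFP, grouped by their labels. The labels call the replicates biologically independent and give no numbers, so these follow the order of deposit. HISAT2 placed the reads on Tcas5.2 and StringTie assembled and quantified transcripts; the submitters' notes also list Bowtie2 and TopHat2. The values deposited per transcript are FPKM, scaled for length and depth. Coverage, a deposited signal of reads per base, is the other unit, from which reads were estimated (coverage times length over 150 nt). The library preparation is not described as strand-specific. The study's DESeq2 test needs counts and was not used.

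Shares are assembled over total FPKM of a locus (StringTie gene_id). Loci with mean FPKM of at least 5 were tested on the percent share. Transcripts and loci with mean FPKM of at least 1 were tested on log2(FPKM + 1). limma 3.58.1 in R 4.3.3 (lmFit, eBayes with trend) was used after a check on simulated data, with p-values adjusted over all features. Single values were compared by exact permutation tests in Python 3.11.15 with scipy 1.17.1. Precision is the spread between 3 libraries. Named loci are all those called, Snf1a, genes the study names, the highest and lowest in level or share, the 5 largest rises and 5 largest falls, and up to 4 per gene list. RpS3, hsp68a, LOC660502 and LOC662203 have no assembled isoform in their loci, and that of LOC659179 (FAS1) lies in a locus without an annotated transcript. Lists come from complete entries of the study's gene ontology table. Members and lists were chosen with earlier results of these data known. Alternatives changed the scale, pseudocount, filter, scaling, length trend, variance model and libraries. A minimum of 5 FPKM in both groups, and leaving out mitochondrial transcripts, were added after seeing the data.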

Additional observations from a re-analysis of the deposited data

How the results depend on the processing

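No paired analysis was run, because neither the labels nor the study describe matched dsTcAMPKα and dsEGFP pools. The count of loci called for share was 14, and 12 to 19 under other scales of the share, other level minimums, estimated reads, a length correction, other minimum differences, a robust variance and, chosen after seeing the data, a minimum of 5 FPKM in both groups. The loci called were not always those 14: 9 of them were shared under either log2 ratio (12 and 15 calls) and 8 at a mean of at least 20 FPKM (19 calls). It was 8 with loci of 1 gene name only, which tests fewer loci, and 22 without the variance trend. Leaving out single libraries gave 0 to 37. The count of assembled isoforms called was 103, and 47 with a pseudocount of 0.1, 40 without a filter and 30 with the length trend removed. Without single libraries it was 1 to 388. Over all transcripts the counts were 468, 247, 215 and 130 in the same order, and 5 to 1653 without single libraries. The cause of these changes was not tested. The difference in percent of all FPKM was 1.80 points, 3.72 points as percent of estimated reads, and 1.63 to 1.93 points without single libraries. That of the median share was 1.09 to 3.24 points without single libraries, and 0.911 points with a level minimum of 1 FPKM. Among the named loci and isoforms refitted no called direction reversed, while the uncalled share difference of Snf1a ran from -3.89 to 0.57 points. Of 322 refits of named shares 261 kept their side of the threshold and 61 lost the call. The 261 include 20 of Snf1a, 19 of LOC661524 and 19 of LOC657286, which had no call to lose. They also include minimum differences of 5 and 20 points on the main fit, which could not change the call of a larger shift. Of 128 refits of named isoforms 93 kept the call and 35 lost it. The files hold no counts, so counting error is unknown, and at low FPKM a share rests on few reads.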
